A study of Mus musculus with 6 samples.

Results

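The genes examined here encode NRF2, its inhibitor KEAP1 and 8 of the antioxidant enzymes and transporters best known as NRF2 targets, measured in microglia with and without overexpression of PGC-1α. They are Nfe2l2 (the gene of NRF2), Keap1, Hmox1, Nqo1, Gclc, Gclm, Slc7a11, Srxn1, Txnrd1 and Prdx1. Every probe whose transcript accession belonged to one of these genes was taken, which gave 15 of 56605 probes and 10 of the 23462 genes with a probe. Of these, 12 probes covering 9 genes were bright enough to be tested, and 9 genes had a probe with a value on every array. Slc7a11 was the gene without a tested probe.

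There were 3 arrays of each group, hybridized with RNA of microglia from mice labelled male and aged 10 weeks. Both groups carry a PGC-1α transgene with an eGFP tag that is expressed only after Cre recombination, and the mice with the transgene alone are named PGC-1αf/f. The mPGC-1α mice carry in addition Cre-ERT2 in the Cx3cr1 locus, so that tamoxifen turns the transgene on, and their PGC-1αf/f littermates, called controls here, lack Cre. The study's methods describe tamoxifen followed by an interval, without stating whether the controls of these arrays received it, and microglia were selected with beads against P2RY12. The labels name the groups only as microglia with or without PGC-1α and name no ischemia, and the mouse lines come from the study's methods. Cx3cr1 is also active in some monocytes and border macrophages, so the driver is not exclusive to microglia. The paper states that the interval after tamoxifen ensures that microglia, and not macrophages, overexpress PGC-1α.

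NRF2 is a transcription factor that is made continuously and destroyed continuously. KEAP1 holds it in the cytoplasm and presents it to the CUL3 ubiquitin ligase, and oxidants or electrophiles that modify cysteines of KEAP1 let NRF2 accumulate, enter the nucleus and pair with a small MAF protein on antioxidant response elements (ARE). BACH1 and BACH2 occupy related sequences as repressors. In microglia, which produce superoxide through NADPH oxidase when activated, this pathway is known for its part in glutathione supply, heme breakdown and restraint of inflammation.

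The sequence that NRF2 reads is shown first, because it is what the target genes are held to share. Promoter windows of 250 bases before to 50 bases after the start site (RefSeq, GRCm38.p6) were matched for 8 of the 10 genes, all but Hmox1 and Gclc. The letters TGACNNNGC, the core of the ARE, were searched on both strands, together with the AP-1 site TGACTCA. An ARE core of the form TGACTCAGC contains an AP-1 site, so matches of both motifs can overlap. The ARE core was present in 5 of the 8 genes (62.5%), in 14.0% of the 27025 genes with a window, and in 11 of 51 other NRF2 pathway genes (21.6%). An AP-1 site was present in 2 of the 8 genes and in 5.95% of all genes with a window. The 3 windows below are those of Srxn1, Prdx1 and Gclm, chosen because Srxn1 had the smallest p of the 10 genes, Prdx1 holds an ARE core that overlaps an AP-1 site, and Gclm has an ARE core alone. They are written 5′ to 3′ along the gene, on the plus strand, with matches to either motif in capitals. They cover chr2:152105274-152105573, chr4:116685349-116685648 and chr3:122245307-122245606, in that order.
Srxn1: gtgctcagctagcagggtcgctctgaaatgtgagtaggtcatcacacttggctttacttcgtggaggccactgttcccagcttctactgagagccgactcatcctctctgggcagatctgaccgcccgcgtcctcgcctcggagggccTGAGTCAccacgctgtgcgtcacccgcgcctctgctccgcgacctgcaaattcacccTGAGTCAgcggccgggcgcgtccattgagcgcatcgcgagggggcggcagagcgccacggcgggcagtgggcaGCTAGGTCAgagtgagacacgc
Prdx1: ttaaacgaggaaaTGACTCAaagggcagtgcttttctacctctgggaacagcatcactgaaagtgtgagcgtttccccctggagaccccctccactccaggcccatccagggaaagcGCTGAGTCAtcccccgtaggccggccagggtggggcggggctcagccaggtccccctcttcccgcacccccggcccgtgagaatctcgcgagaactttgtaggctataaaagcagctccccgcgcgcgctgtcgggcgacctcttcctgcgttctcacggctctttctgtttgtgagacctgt
Gclm: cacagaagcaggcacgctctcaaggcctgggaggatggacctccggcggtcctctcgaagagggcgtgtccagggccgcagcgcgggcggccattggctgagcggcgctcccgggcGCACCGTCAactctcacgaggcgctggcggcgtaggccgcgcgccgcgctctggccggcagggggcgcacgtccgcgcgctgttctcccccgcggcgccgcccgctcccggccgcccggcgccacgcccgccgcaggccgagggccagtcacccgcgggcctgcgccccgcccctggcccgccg
Positions below count from the start site as 1 and give the lowest base of a match. In the Srxn1 window both AP-1 matches lay before the start, at -102 and -45, on the strand opposite to the gene, and the ARE core lay after it, at 29. The Prdx1 window had an AP-1 match at -237 along the gene and the overlapping pair at -133 and -131 on the opposite strand. The single match of Gclm stood at -134. Nfe2l2 itself held an ARE core at -240, and 1 of the 3 windows of Txnrd1 held it at -92. Keap1, Nqo1 and Slc7a11 had neither string in their windows. A match is a run of letters and not a measured binding site.

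All expression values are log2 signal minus the 75th percentile of the array, so that 0 marks the signal of a spot at that percentile. Of 59305 spots per array, 27025 to 30272 were well above background and 0 were saturated. PGC-1αf/f replicate 3 stood apart, correlating at 0.928 on average with the others, against 0.962 to 0.972 for the rest. On mPGC-1α replicate 3, 0 of 4 Y-linked genes were well above background although the label is male, against 4 of 4 on every other array. Xist was well above background on that array and on replicate 2 of each group. All 6 arrays lay on 1 slide, the controls in row 1 and the mPGC-1α arrays in row 2, so slide row and group cannot be told apart. Nothing in the labels says that the 3 samples of a group came from separate mice, and p-values then measure only the spread between these samples. All 10 microglial markers were well above background on all 6 arrays. The brighter probe of the targeted gene, Ppargc1a (A_51_P279038), was higher by 0.80 (SE 0.35, limma adjusted p 0.306) with overlapping groups. This difference was 0.44 without PGC-1αf/f replicate 3 and 1.14 without PGC-1αf/f replicate 1, and whether the probe reads the transgene was not tested.

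None of the 9 measurable genes reached an adjusted p of 0.05 by limma. The smallest adjusted p was 0.195, for Srxn1, and Srxn1, which was higher, was also the 1 gene with an unadjusted p under 0.05, where 8.16% of all genes were higher and 5.71% lower at that p. Over all tested probes 0.0792% were called, and over all genes represented by 1 probe 0.065%, so a count of 0 among 9 genes is near the background. In 8 of the 9 genes the mPGC-1α mean was the higher one, while this was so for 54.1% of all genes. The median log2 fold change of the 9 genes was 0.23, beside 0.028 over all 12302 genes. Nfe2l2 counts here by a probe for a non-coding transcript, and with outlier spots kept, where its coding probe stands for it, 7 of the 9 means were higher. The genes were chosen with earlier results of these data known, so these contrasts with all genes do not test the pathway.

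**Figure D1:**
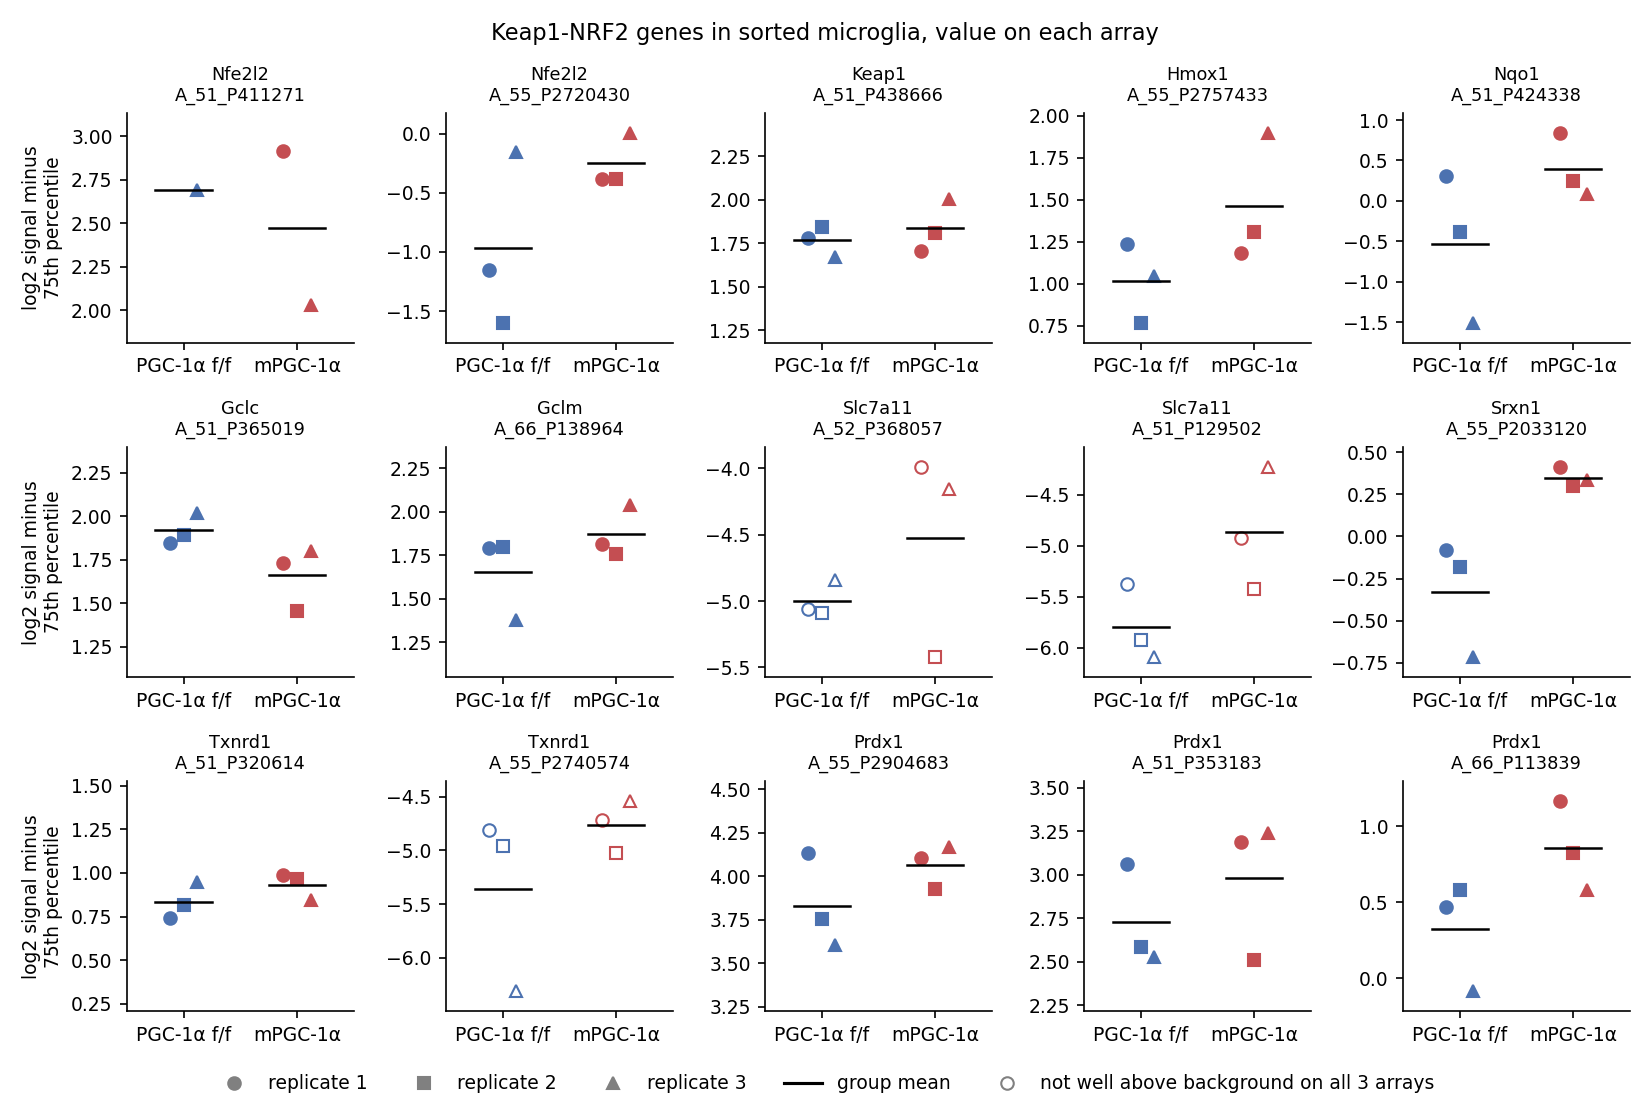
Log2 signal minus the 75th percentile of the array (vertical axis, own scale in each panel) for each of the 15 probes, with PGC-1αf/f in blue and mPGC-1α in red. Symbols mark the replicate, lines the group mean, and open symbols a group in which the probe was not well above background on every array. Srxn1 is the one tested probe with every mPGC-1α value above every control value, Gclc the one with every value below, and both Slc7a11 probes stay at -3.99 or lower.

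The regulators come first. For Nfe2l2, the probe of the coding transcript (A_51_P411271) was flagged as an outlier spot on 3 of the 6 arrays, and the fit dropped those values. What remained was 2.69 on PGC-1αf/f replicate 3, with 2.91 and 2.03 on mPGC-1α replicates 1 and 3. The difference of -0.22 (SE 0.45, limma adjusted p 0.833) therefore rested on 3 arrays. With the flagged spots kept, the values were 2.68, 2.64 and 2.69 in controls and 2.91, 2.74 and 2.03 in mPGC-1α microglia. The controls were nearly identical, and the mPGC-1α arrays lay on both sides of them, with a difference of -0.11 (SE 0.23, limma adjusted p 0.839). This setting was chosen after seeing the data.

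A second Nfe2l2 probe (A_55_P2720430) matches a non-coding transcript of the gene. It gave -1.15, -1.60 and -0.15 in controls and -0.38, -0.38 and 0.0077 in mPGC-1α microglia. PGC-1αf/f replicate 3 lay above 2 of the mPGC-1α arrays, so the groups overlapped. The mean was higher by 0.72 (SE 0.36, limma adjusted p 0.353), which is 1.64-fold with a 95% interval of 0.913 to 2.96. Leaving out PGC-1αf/f replicate 2 lowered it to 0.40, and leaving out PGC-1αf/f replicate 3 raised it to 1.13. The difference of the coding probe had the opposite sign, but that sign hung on mPGC-1α replicate 3, without which it was 0.22. Neither probe differed beyond the spread between replicates.

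Keap1, the inhibitor, gave 1.78, 1.84 and 1.67 in controls and 1.70, 1.81 and 2.00 in mPGC-1α microglia (A_51_P438666). The groups overlapped, with the lowest value on PGC-1αf/f replicate 3 and the highest on mPGC-1α replicate 3. The difference was 0.074 (SE 0.14, limma adjusted p 0.807), and the interval of the fold, 0.838 to 1.32, bounds the change on either side. Its sign was not stable, being negative with scaling by the median rather than the 75th percentile (-0.059), with array weights (-0.0073) and without mPGC-1α replicate 3 (-0.0090).

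Hmox1 encodes heme oxygenase 1, which splits heme into biliverdin, iron and carbon monoxide. In controls its values were 1.23, 0.77 and 1.05, and in mPGC-1α microglia 1.18, 1.31 and 1.90 (A_55_P2757433). One mPGC-1α array stood well above the other 5, and mPGC-1α replicate 1 fell below PGC-1αf/f replicate 1. The means were 1.01 ± 0.24 and 1.46 ± 0.38 (SD, n = 3 each). The fold was 1.37 with a 95% interval of 0.940 to 1.98, and the difference of 0.45 (SE 0.23) had a limma adjusted p of 0.358. Without mPGC-1α replicate 3 it was 0.23. On that same array the summed signal of 7 border macrophage markers was 17.3 times the 75th percentile of the array, against 8.97 to 12.7 on the others, and the part of these cells in the Hmox1 value was not tested. In bulk samples of this kind fewer cells of a type and less RNA per cell cannot be told apart.

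Nqo1, which encodes a quinone reductase and is a common readout of NRF2 activity, had the largest difference among the 9 genes and the largest spread. Controls gave 0.31, -0.38 and -1.51, and mPGC-1α microglia gave 0.84, 0.24 and 0.085 (A_51_P424338). PGC-1αf/f replicate 1 exceeded mPGC-1α replicates 2 and 3, while PGC-1αf/f replicate 3 lay far below all other arrays. The mean was higher by 0.92 (SE 0.45, limma adjusted p 0.351), or 1.89-fold with a 95% interval of 0.897 to 3.97. It was 0.43 without PGC-1αf/f replicate 3 and 1.33 without PGC-1αf/f replicate 1. Its size thus depended on which control arrays were kept.

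Next, the genes of glutathione supply were compared. Glutamate cysteine ligase, the rate-limiting enzyme of glutathione synthesis, is built of a catalytic subunit (Gclc) and a modifier subunit (Gclm), and xCT (Slc7a11) imports the cystine it needs. Gclc was 1.85, 1.90 and 2.02 in controls and 1.73, 1.46 and 1.80 in mPGC-1α microglia (A_51_P365019). Every mPGC-1α array lay below every control array, which held in the lower direction for 10.8% of all genes. The difference was -0.26 (SE 0.15, limma adjusted p 0.395), and the fold of 0.836 had an interval of 0.659 to 1.06. Gclc was the 1 gene of the 9 with a lower mean, and the sign held under all 19 alternatives, which ran from -0.39 to -0.15, the latter without mPGC-1α replicate 2.

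The modifier subunit gave a different picture. Gclm was 1.79, 1.80 and 1.38 in controls and 1.82, 1.76 and 2.04 in mPGC-1α microglia (A_66_P138964). Apart from the low PGC-1αf/f replicate 3 and the high mPGC-1α replicate 3, the 4 remaining arrays were nearly level. The difference was 0.22 (SE 0.17, limma adjusted p 0.532), and it was 0.078 without PGC-1αf/f replicate 3, 0.13 without mPGC-1α replicate 3 and -0.0070 with both left out. Whether the differences of Gclc and Gclm differ from each other was not tested.

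Neither Slc7a11 probe was flagged well above background on any of the 6 arrays. A_51_P129502 ranged from -6.09 to -4.23 and A_52_P368057 from -5.42 to -3.99. Values this low carry no order between the groups, and no fold is given. Its partner chain in the plasma membrane, Slc3a2, was bright on every array, between 5.22 and 5.73, but is shared with other amino acid transporters.

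The remaining 3 genes serve the thioredoxin and peroxiredoxin branch, in which peroxiredoxin 1 (Prdx1) reduces peroxides, sulfiredoxin (Srxn1) rescues over-oxidized peroxiredoxins and thioredoxin reductase 1 (Txnrd1) recharges thioredoxin with NADPH. Srxn1 was -0.082, -0.18 and -0.72 in controls and 0.41, 0.30 and 0.33 in mPGC-1α microglia (A_55_P2033120). All mPGC-1α arrays exceeded all controls, and they lay close together, while PGC-1αf/f replicate 3 was again the lowest. Groups that did not overlap in the higher direction were found for 12.2% of all genes.

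The Srxn1 means were -0.33 ± 0.34 and 0.35 ± 0.057 (SD, n = 3 each). The difference of 0.67 (SE 0.19) corresponded to 1.60-fold with a 95% interval of 1.17 to 2.18. Its unadjusted p by limma was 0.0095 and its adjusted p 0.195, and 8.16% of all genes were higher with an unadjusted p under 0.05. Leaving out PGC-1αf/f replicate 3 gave 0.48, the lowest of the values with an array left out, and the highest was 0.80. Srxn1, whose window with 2 AP-1 sites and an ARE core is printed above, had the higher mean under all 19 alternatives but did not pass the test over all probes.

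Txnrd1 was 0.74, 0.81 and 0.95 in controls and 0.99, 0.97 and 0.84 in mPGC-1α microglia (A_51_P320614). The groups overlapped, with a difference of 0.097 (SE 0.13, limma adjusted p 0.720) and a fold between 0.866 and 1.32 by the 95% interval. The difference was 0.051 without PGC-1αf/f replicate 1 and 0.15 without PGC-1αf/f replicate 3, and with a median shift the sign turned (-0.036). A second probe (A_55_P2740574) was flagged well above background on 0 of the 6 arrays.

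Prdx1 was read by 3 probes, all tested. The brightest (A_55_P2904683) gave 4.14, 3.76 and 3.60 in controls and 4.10, 3.93 and 4.17 in mPGC-1α microglia, and the groups overlapped at PGC-1αf/f replicate 1. The difference was 0.23 (SE 0.18, limma adjusted p 0.513). A_51_P353183 gave 3.06, 2.58 and 2.53 against 3.19, 2.51 and 3.24, with a difference of 0.25 (SE 0.25, limma adjusted p 0.619).

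The dimmest Prdx1 probe, A_66_P113839, gave 0.47, 0.58 and -0.086 in controls and 1.16, 0.82 and 0.58 in mPGC-1α microglia. The lowest mPGC-1α value fell just under the highest control value. The difference was 0.53 (SE 0.23, limma adjusted p 0.309), so the 3 probes shared the direction. With an array left out the brightest ran from 0.12 to 0.39, A_51_P353183 from 0.12 to 0.49 and A_66_P113839 from 0.33 to 0.67. The lowest values of the brightest and the dimmest probe came without PGC-1αf/f replicate 3, and that of A_51_P353183 without mPGC-1α replicate 3.

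**Figure D2:**
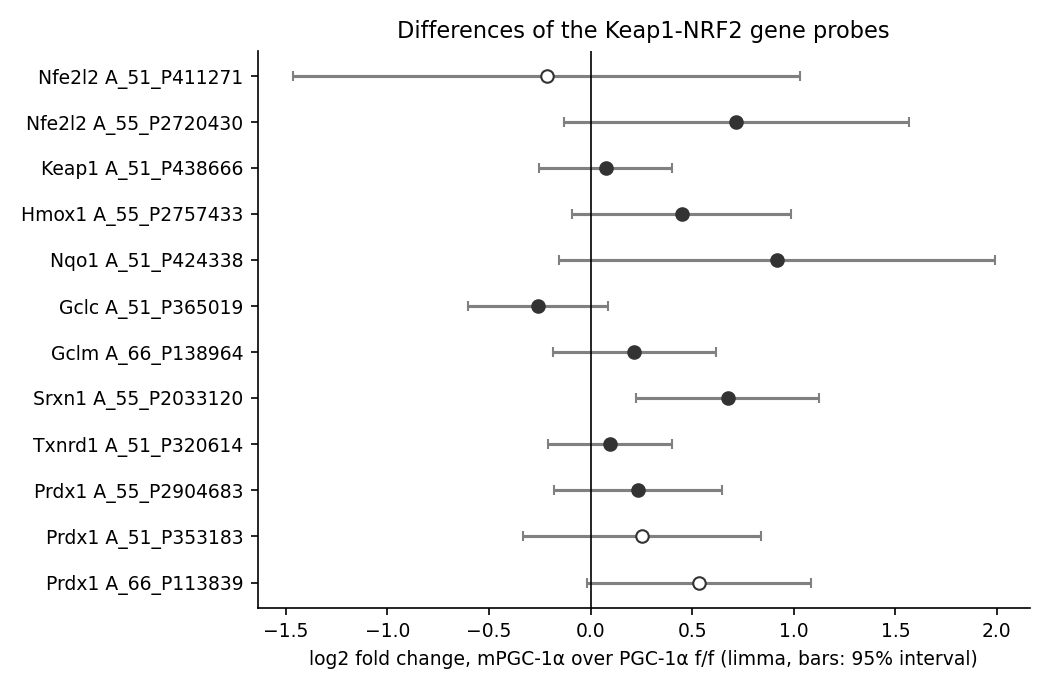
Log2 fold change of mPGC-1α over PGC-1αf/f (horizontal axis) for the 12 tested probes, with the 95% interval of the limma fit as bars. Filled points mark the probe that represents its gene, and the interval of Srxn1 is the one that leaves out 0, before any adjustment for the number of probes.

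To see how the genes behaved on single arrays, each was centred on its own mean over the 6 arrays. Averaged over the 9 genes, the centred values were -0.017, -0.23 and -0.27 on the control arrays, while the mPGC-1α arrays had 0.18, 0.070 and 0.27. PGC-1αf/f replicate 3 was the lowest array for 5 of the 9 genes (Keap1, Nqo1, Gclm, Srxn1 and Prdx1), where it was the lowest for 33.4% of all genes. For Nfe2l2, Gclc and Txnrd1 it was the highest control array. At the other end, mPGC-1α replicate 3 was the highest array for 5 of the 9 genes, Nfe2l2, Keap1, Hmox1, Gclm and Prdx1, beside 23.1% of all genes.

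Both arrays also differed in markers of other cells. The summed signal of 12 blood leukocyte markers, 9 of them well above background on every array, was 31.1 on PGC-1αf/f replicate 3 and 103 and 108 on the other controls, in multiples of the array's 75th percentile. It ran from 111 to 137 in mPGC-1α microglia, so this sum lay higher there on every array. Averaged as centred log2 values, the same list overlapped, with 0.26 on PGC-1αf/f replicate 2 and 0.18 on mPGC-1α replicate 1. The 9 oligodendrocyte markers went the other way, from 15.0 to 18.1 in controls and from 9.62 to 12.6 in mPGC-1α microglia. Summed microglial markers, 4 of the 10 listed having a probe with values throughout, were 72.3 to 84.7 in controls and 65.6 to 72.8 in mPGC-1α microglia, overlapping narrowly. Among these 4, Cx3cr1, whose locus carries Cre-ERT2 in the mPGC-1α mice, was lower by a mean of -0.51 (limma adjusted p 0.194). Summed without Cx3cr1, a choice made after seeing the data, the other 3 were 52.8 to 61.7 in controls and 50.2 to 59.5 in mPGC-1α microglia. The remaining lists overlapped between the groups too. Erythroid sums were 4.95 to 21.0 in controls, lowest on PGC-1αf/f replicate 3, and 11.51 to 20.8 in mPGC-1α microglia, and endothelial and mural sums were 1.57 to 4.55 and 3.16 to 6.14. Astrocyte sums ran from 12.9 to 17.1 in controls and 15.2 to 23.8 in mPGC-1α microglia, and neuronal sums from 12.5 to 16.3 and 14.6 to 16.5. None of the markers passed the test, and the part of these cells in the differences of the antioxidant genes was not tested.

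**Figure D3:**
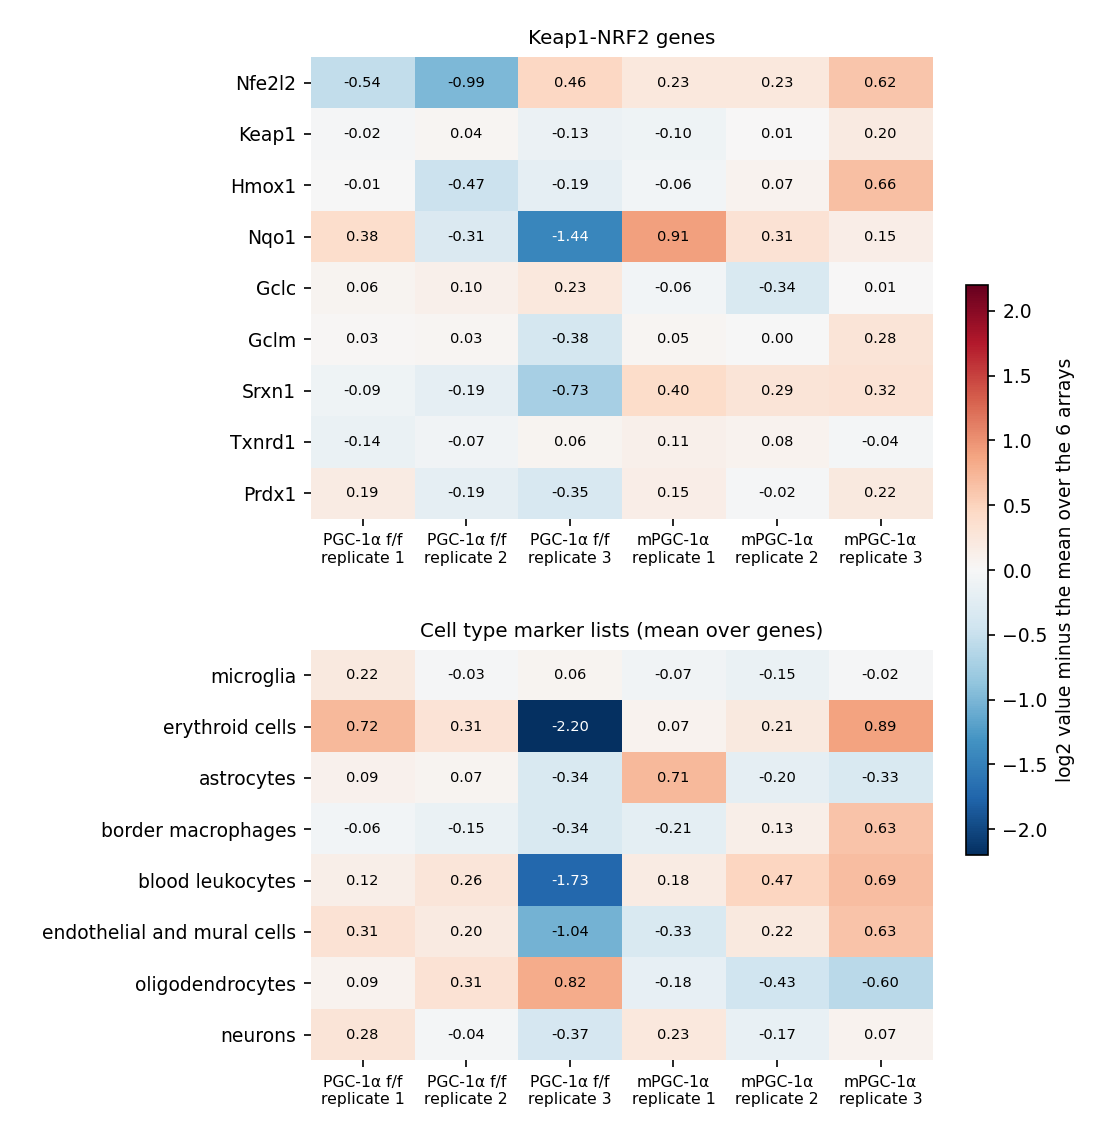
Log2 value of each gene minus its mean over the 6 arrays (upper panel, colour and printed number) and the same averaged over the genes of each cell type marker list (lower panel), with 1 column per array. Of the 9 genes, 5 are lowest on PGC-1αf/f replicate 3, where 6 of the 8 marker lists are lowest too and the oligodendrocyte list is highest, and Hmox1 is highest on mPGC-1α replicate 3.

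Leaving out PGC-1αf/f replicate 3 lowered the median of the 9 genes from 0.23 to 0.15, and 8 of the 9 means were still higher in mPGC-1α microglia. Leaving out mPGC-1α replicate 3 gave a median of 0.18 with 7 of 9 higher. With both arrays left out the median was 0.20 and 6 of 9 means were higher. Srxn1 then differed by 0.49, Nqo1 by 0.58 and Hmox1 by 0.25, whereas the brightest Prdx1 probe differed by 0.069. A median shift, which moved the median of all probes to -0.14, left 6 of the 9 means higher and gave the 9 genes a median of 0.10.

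**Figure D4:**
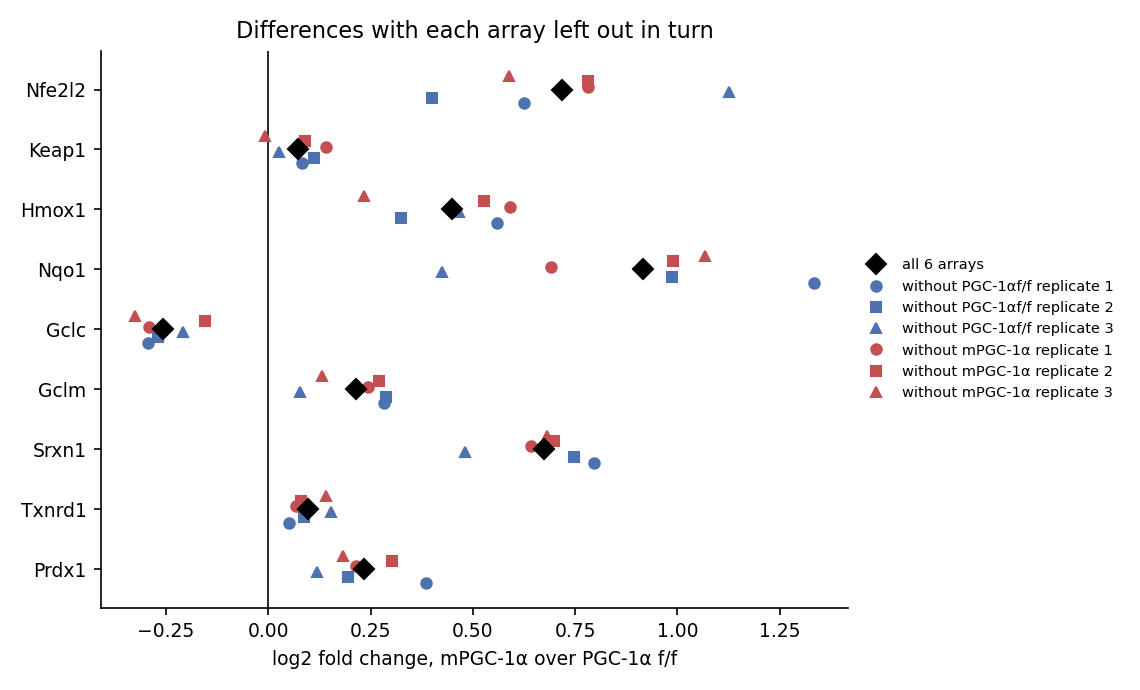
Log2 fold change of mPGC-1α over PGC-1αf/f (horizontal axis) for the 9 representative probes with all 6 arrays (black diamonds) and with each array left out in turn (blue for a control array, red for an mPGC-1α array). Points of 8 genes stay on one side of 0, those of Nqo1 spread from 0.43 to 1.33, and those of Keap1 cross 0.

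The genes around these members were examined next, as 60 further NRF2 pathway genes grouped by role, of which 57 had a representative probe. None passed the test by limma. One of them, Maff, was not well above background in controls and entered only through the mPGC-1α arrays, so the counts that follow are over the other 56, all well above background on all 6 arrays, beside the genes of the whole array that were so too. Before adjustment, a p under 0.05 was reached by 6 of the 56 that were higher and 4 that were lower, where 6.86% of such genes were higher and 5.63% lower. Groups did not overlap for 15 higher and 5 lower genes of the 56, beside 11% in each direction, so the lower count is near the background. The mean was higher in 42 of 56, beside 52.6%, and the median log2 fold change was 0.20, beside 0.017. The pathway list was chosen with earlier results of these data known, so these contrasts with all genes do not test the pathway. PGC-1αf/f replicate 3 was the lowest array for 32 of the 56, beside 31.7%. From each role, the genes with the highest and the lowest difference are named below.

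Among 10 regulators, Maff included, the median difference was 0.0033. Cul3, the scaffold of the ligase that removes NRF2, was 1.13, 1.34 and 1.44 in controls and 1.46, 1.64 and 1.56 in mPGC-1α microglia, higher on every array by a mean of 0.25 (limma adjusted p 0.389). It was 0.17 without PGC-1αf/f replicate 1 and 0.12 with a median shift. Bach2, a repressor that occupies ARE-like sequences and is best known from lymphocytes, was 1.55, 1.502 and 1.76 in controls and 0.97, 0.90 and 0.89 in mPGC-1α microglia. These groups lay far apart relative to their spread, with a difference of -0.68 (SE 0.13, limma adjusted p 0.119). With array weights, a setting that called 3.04% of all probes, its adjusted p was 0.033. Maff, a small MAF partner of NRF2, fell outside the naming rule and was picked out after its values were seen. Its probe was flagged well above background on 0 of 3 control arrays (-4.46, -3.74 and -5.31) and on 3 of 3 mPGC-1α arrays (-2.46, -2.86 and -1.98). The bound described below put the mPGC-1α mean 2.38-fold higher than controls (1.25 in log2), a single value without an interval. With normexp and quantile normalization the log2 difference was 1.13, which is under that bound. The difference of Maff is given without a p.

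The 16 glutathione genes had a median of 0.31, with 13 means higher and 7 genes higher without overlap, beside 52.6% and 11% of all genes well above background on all 6 arrays. Gstm2, a glutathione transferase, was 0.37, -0.091 and -1.23 in controls and 1.203, 0.85 and 1.00 in mPGC-1α microglia. Its difference of 1.33 (SE 0.39, limma adjusted p 0.201) came to 0.88 without PGC-1αf/f replicate 3, the lowest array. Abcc1, an exporter of glutathione conjugates, had the lowest difference of the group, -0.30 (limma adjusted p 0.405), with overlapping groups.

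All 6 NADPH genes had higher means, beside 52.6% of all genes well above background on all 6 arrays, with a median of 0.33. Malic enzyme (Me1) gave -1.06, -1.44 and -2.38 in controls and -0.15, -0.999 and -1.04 in mPGC-1α microglia, a difference of 0.89 (SE 0.39, limma adjusted p 0.306) that was 0.52 without PGC-1αf/f replicate 3. The groups did not overlap, but the margin between PGC-1αf/f replicate 1 and mPGC-1α replicate 3 was small. A brighter Me1 probe (A_55_P2009952), without a value on mPGC-1α replicate 1, differed by 0.42 (limma adjusted p 0.469) with overlapping groups. Pgd, a dehydrogenase of the pentose phosphate pathway, differed by 0.059 and turned sign under quantile normalization, a median shift and normexp. In the thioredoxin group of 5 (median 0.055), thioredoxin itself (Txn1) was 3.12, 3.12 and 2.59 in controls and 3.34, 3.28 and 3.49 in mPGC-1α microglia, higher by 0.42 (limma adjusted p 0.305) and by 0.25 without PGC-1αf/f replicate 3. Txnrd2, the mitochondrial thioredoxin reductase, differed by -0.14 with its brighter probe (limma adjusted p 0.689), by -0.045 without PGC-1αf/f replicate 3 and by -0.28 without PGC-1αf/f replicate 1. Its other probe (A_52_P193060) was lower without overlap, by -0.46 (limma adjusted p 0.229).

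Of 8 genes of heme and iron handling (median 0.17), biliverdin reductase B (Blvrb) had the highest difference, with 1.91, 2.09 and 1.88 in controls and 2.41, 2.10 and 2.44 in mPGC-1α microglia. The difference was 0.36 (limma adjusted p 0.297), with PGC-1αf/f replicate 2 nearly level with mPGC-1α replicate 2. Ferroportin (Slc40a1), the iron exporter, was lower on every mPGC-1α array (1.59, 1.32 and 1.61) than on any control (1.88, 1.78 and 2.54), with a difference of -0.56 (limma adjusted p 0.284) that was -0.33 without PGC-1αf/f replicate 3.

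In the detoxification group of 12 (median 0.21), Osgin1, an oxidative stress induced growth inhibitor, had the smallest adjusted p of the pathway. It was -1.71, -1.01 and -1.68 in controls and 0.26, -0.47 and -0.018 in mPGC-1α microglia, so the groups were clearly separate. The difference was 1.39 (SE 0.26, 2.63-fold, limma adjusted p 0.117), and with each array left out in turn it stayed between 1.23 and 1.62. Ugt1a6a, a glucuronosyltransferase whose exons are shared with other Ugt1a genes, was lower without overlap, with a difference of -0.79 (limma adjusted p 0.209).

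**Figure D5:**
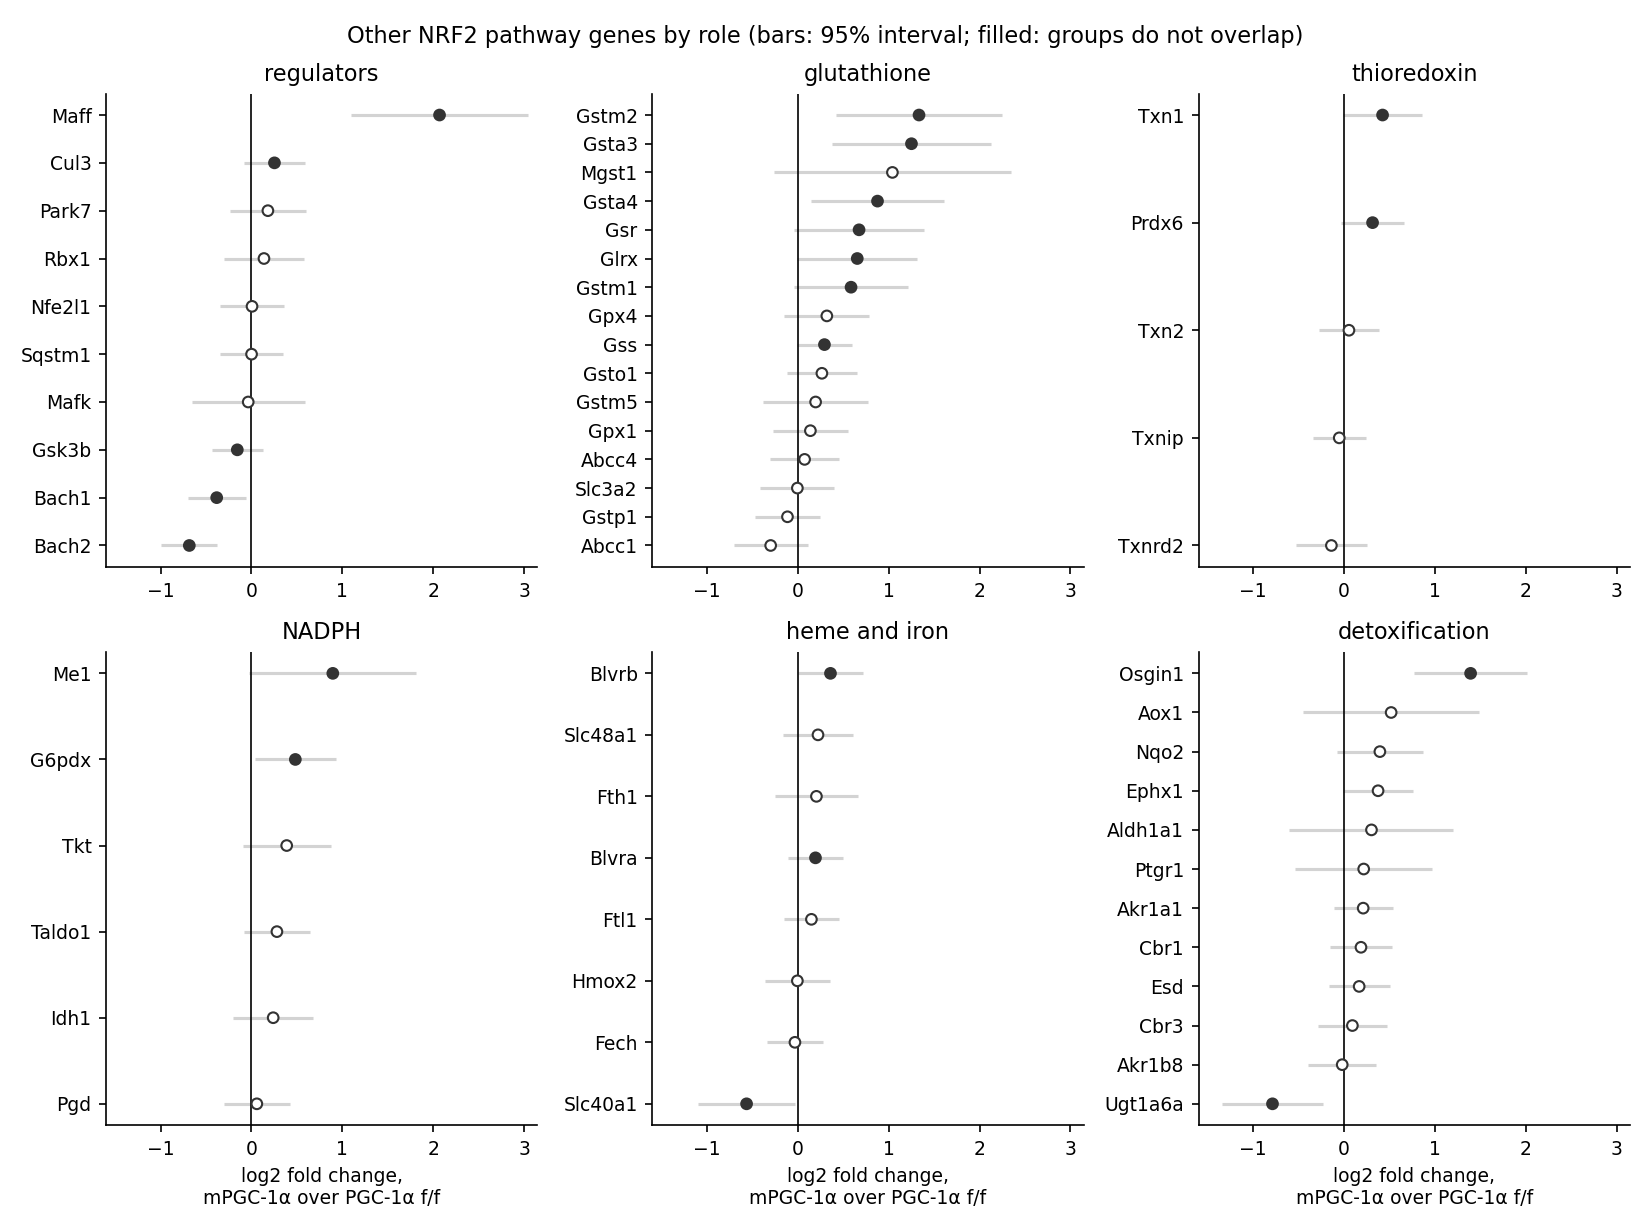
Log2 fold change of mPGC-1α over PGC-1αf/f (horizontal axis) with the 95% interval of the limma fit, before any adjustment, for 57 NRF2 pathway genes in 6 role groups. Filled points mark genes whose groups do not overlap, which are 16 higher (Maff among them) and 5 lower genes, where 12.2% and 10.8% of all genes did not overlap. The Maff point is a fitted value against controls that were not well above background.

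Finally, the genes with the pattern most like Hmox1 and Nfe2l2 were sought by the root mean square difference of centred log2 values over the 6 arrays, among 11564 genes well above background on all of them. Closest to Hmox1 were Ermn (0.0627), 4930572O13Rik (0.0718) and Znrf4 (0.0863). Ermn, which encodes a cytoskeletal protein of oligodendrocytes, was 0.33, -0.25 and -0.016 in controls and 0.29, 0.28 and 0.88 in mPGC-1α microglia, highest on mPGC-1α replicate 3 as Hmox1 was. It did not follow the 9 oligodendrocyte markers, whose sum was lowest on that array (9.62). For the non-coding Nfe2l2 probe the closest were Gm14486 (0.219), the border macrophage marker Lyve1 (0.266) and Arfgef1 (0.294), which were farther from it than any of the 3 neighbours of Hmox1 were from theirs. Lyve1 was highest on PGC-1αf/f replicate 3 (0.025), where the border macrophage sum was lowest (8.97), so it did not follow its list.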

How the data were processed

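Total RNA of P2RY12-selected microglia was amplified linearly, labelled with Cy5 and hybridized to 1-colour Agilent mouse arrays. The deposited scanner files hold spot intensity from Agilent Feature Extraction 11.5.1.1, after the authors' background subtraction, with flags. For the whole series, a deposited table holds the same intensity without normalization between arrays. GeneSpring is named in the methods for normalization, and no test per gene is given.

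Control spots and outlier spots were left out, log2 intensity was reduced by the 75th percentile of each array, and spots of a probe were averaged. A probe was tested if it was well above background throughout at least 1 group (25333 of 56605, 25257 with a p-value) with limma 3.58.1 (R 4.3.3, with data.table, version 1.17.8, two-sided, lmFit and eBayes), adjusted by the Benjamini-Hochberg method over all of them. The brightest probe with a value on all 6 arrays represented a gene. A bound sets the brighter group's mean against the higher of the dim probe's signal and the lowest signal well above background on each dim array. The number of arrays limits the precision, and levels of different probes were not compared. The fitting code was tested on simulated data.

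Accessions were matched to RefSeq names (assembly GRCm38.p6, with a single symbol for 33767 probes and none for 22838). Members, pathway lists and marker lists were chosen with earlier results of these data known. Besides all members, the naming rule took, from each role list, the highest and the lowest log2 fold change among genes well above background on all 6 arrays, any gene past the threshold, the 3 genes nearest to Hmox1 and to Nfe2l2 in centred values, and Ppargc1a. Motif searches and figures used Python 3.11.15, numpy 2.4.6, pandas 2.3.3 and matplotlib 3.10.9.

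The fit was repeated with a median shift, with quantile normalization alone or after normexp (offset 50), from the deposited table, with no filter or a filter on all 6 arrays, with array weights (gene-by-gene estimates, since the default estimate did not converge), with a block for replicate number or a random block for slide column, with trend and robust in eBayes, with the probes of a gene averaged, with each array left out in turn, and with replicate 3 of both groups left out. Keeping outlier spots, pathway counts limited to genes well above background on all 6 arrays, and a microglial sum without Cx3cr1 were added after seeing the data.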

Additional observations from a re-analysis of the deposited data

How the results depend on the processing

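Across 19 alternatives, limma placed 0 members past the threshold in each, with 1 to 5 at an unadjusted p under 0.05. The 5 came with array weights, under which 22.9% of all probes had such a p. Of 223 member values, 216 kept their sign and 7 turned. Those were Keap1 with a median shift (-0.059), with array weights (-0.0073), without mPGC-1α replicate 3 (-0.0090) and without replicate 3 of both groups (-0.056), Txnrd1 with a median shift (-0.036), Gclm without replicate 3 of both groups (-0.0070), and the coding Nfe2l2 probe without mPGC-1α replicate 3 (0.22). With an array left out, Gclm reached 0.29, Pgd 0.18 and the coding Nfe2l2 probe -0.66 at the other end. Pgd turned under quantile normalization (-0.0016), a median shift (-0.074), normexp (-0.021) and without mPGC-1α replicate 2 (-0.0058). The members' median moved to 0.10 with a median shift, 0.11 with normexp, and 0.34 both without a filter, where Slc7a11 entered, and as a mean over probes. With an array left out it ran from 0.15 (PGC-1αf/f replicate 3) to 0.39 (PGC-1αf/f replicate 1). The median of the other pathway genes was 0.073 with a median shift, 0.091 without replicate 3 of both groups, and 0.12 to 0.28 with an array left out. Of the 57, 2 (Bach2 and Gsta3) came past the threshold with array weights, which called 3.04% of all probes, so that count is near the background. The deposited table listed 1, Maff, which entered through the mPGC-1α arrays alone and is not taken as a call.

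The count over all tested probes, 20, was far less stable. It was 11 under quantile normalization, a median shift and normexp, 456 with the deposited table, 9 without a filter, 4 with the filter on all 6 arrays, 767 with array weights, 138 with a random block for slide column (consensus correlation 0.349) and 3 without replicate 3 of both groups. With 1 array left out it ran from 0 without mPGC-1α replicate 3 (at an unadjusted p under 0.05, 1325 higher and 2010 lower) to 25 without PGC-1αf/f replicate 3, and it was 2 without PGC-1αf/f replicate 2, 11 without mPGC-1α replicate 1 and 1 without mPGC-1α replicate 2. The cause was not tested.

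With the replicate number as a block, limma called 0 probes (at an unadjusted p under 0.05, 2393 higher and 2304 lower). Deviations of same-numbered arrays correlated at 0.14, 0.13 and 0.019, so the numbers were not taken as a pairing. The block changed no member's call, and the members' median stayed 0.23.

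With 3 arrays a group, intervals of the members' folds were wide, reaching from 0.897 to 3.97 for Nqo1. Slc7a11 is below what these probes can measure, and slide row and group cannot be told apart.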

Other observations

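Among the pathway genes well above background on all 6 arrays, 6 higher (10.7%) and 4 lower ones (7.14%) of 56 had an unadjusted p under 0.05. The shares over all such genes were 6.86% and 5.63%, so both counts are near the background. Of the pathway genes with such a p, 4 fell outside the naming rule and were picked out after their values were seen. Bach1, which competes with NRF2 for ARE sequences, was 2.09, 1.92 and 2.02 in controls and 1.53, 1.56 and 1.78 in mPGC-1α microglia. The groups did not overlap, and the difference was -0.38 (SE 0.14, limma adjusted p 0.252). G6pdx, the entry enzyme of the pentose phosphate pathway and a source of NADPH, was 2.38, 2.73 and 2.13 in controls and 2.76, 3.07 and 2.85 in mPGC-1α microglia, a difference of 0.48 (SE 0.19, limma adjusted p 0.276). Its highest control value lay just under the lowest mPGC-1α value.

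The other 2 were glutathione transferases. Gsta4, which conjugates lipid aldehydes, was 1.37, 1.19 and 0.18 in controls and 1.93, 1.76 and 1.68 in mPGC-1α microglia, higher by 0.88 (SE 0.31, limma adjusted p 0.251). Its lowest value was again on PGC-1αf/f replicate 3, without which the mean difference was 0.51. The representative probe of Gsta3 was well above background on all 6 arrays, at -2.80, -3.58 and -3.54 in controls and -1.41, -2.02 and -2.73 in mPGC-1α microglia. It was higher by 1.25 (SE 0.37, limma adjusted p 0.205). Here PGC-1αf/f replicate 3 did not stand apart from replicate 2. A second Gsta3 probe (A_51_P503625) was well above background on 2 of 3 control arrays. Its difference was 1.27 (limma adjusted p 0.227), with overlapping groups. Transcripts of this family are alike in sequence, and which of them a probe reads was not tested.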
